A study of Mus musculus with 4 samples.

Results

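Tuft cells are rare chemosensory cells of the gut epithelium, and 7 genes that mark them were followed here through colons of mice with and without chemically induced colon tumors. They were Trpm5, Gng13, Pou2f3, Gfi1b, Dclk1, Sucnr1 and Il25, of 22259 genes named on the array. The members were chosen by gene symbol as known tuft cell genes, and Sucnr1 was selected on its low signal in the colons with tumors, so that the values after tumor induction describe the members and support nothing about them. The genes are covered by 10 of 39429 probes, each a designed oligonucleotide of 60 bases, and every probe is reported.

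The mice were male, 42 weeks old and of the mixed background B6.129 (n3), and were either Pla2g3+/+ or lacked the gene for group III secreted phospholipase A2 (Pla2g3-/-). Each genotype was given saline as vehicle or azoxymethane (AOM), a carcinogen activated in liver and colon, by intraperitoneal injection of 10 mg/kg weekly for 6 weeks, and AOM-treated colons were taken 28 weeks after the last dose. RNA from colons of 3 to 5 mice was pooled for each of the 4 groups and hybridized to 1 one-color array, and all 4 arrays lie on 1 slide. The labels call the AOM tissue colorectal cancer and do not say how much of each colon was tumor. With 1 array per group there is no replicate check, no difference below has a p-value, and the only errors given are those that the scanner software assigns to a spot, which leave out the spread between mice.

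In the gut, tuft cells detect luminal compounds with a cascade shared with taste cells, in which a G protein activates a phospholipase C, calcium is released from stores and the cation channel TRPM5 opens. The transcription factor POU2F3 is required for the cells to form. In the small intestine, activated tuft cells release interleukin-25, which acts on group 2 innate lymphoid cells, and the interleukin-13 that these produce expands tuft and goblet cells. In bulk tissue, fewer cells of a type and less RNA per cell cannot be told apart.

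The probes are identified by the first 30 of their 60 bases, 5′ to 3′ in lower case, because for Dclk1 the result depends on which probe is read. Positions follow the mm9 coordinates written in the files.
Trpm5, chr7:150257434-150257456 on the minus strand: tatgacggatacactggctccaggaggcac
Gng13, chr17:25855911-25855970 on the plus strand: cttcctgaacccagacctgatgaagaacaa
Gfi1b, chr2:28464982-28465041 on the minus strand: agccatgatagtagaagcctgctcctatca
Sucnr1, chr3:59891281-59891340 on the plus strand: ctagttgcaaatgctgaatgcatttcatca
Dclk1 probe 1, chr3:55266925-55266984 on the plus strand: aatggaacccctggtagtcagctctctact
Dclk1 probe 2, chr3:55273441-55273500 on the plus strand: cctcttctttgcagccatacctgactgtac
Dclk1 probe 4, chr3:55340456-55340515 on the plus strand: tgtgaattgttccaaaccattagaaggaaa
Of the Trpm5 probe, the files place 23 of the 60 bases. The third Dclk1 probe and the single probes of Pou2f3 (chr9:42932963-42933022, minus strand) and Il25 (chr14:55554319-55554378, plus strand) were not well above background on any array.

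Signals are given as a percent of the 75th percentile of the signals on the same array. That percentile was an intensity of 646 and 650 on the Pla2g3+/+ and Pla2g3-/- vehicle arrays and 1309 and 1169 on the AOM arrays. A spot counted as detected when the scanner software called it well above background, which held for 64.8% to 69.4% of spots. Where a gene was detected on 1 of the arrays compared, the other side was set to the lowest detected signal of its array (1.26% to 2.28%). The difference is then written as "at least". If its own signal was higher than that, the signal was used as measured. Of the 3 probes for Pla2g3, the brightest gave 53.1% and 65.6% with vehicle and 23.2% and 140% after AOM (Pla2g3+/+ first). Of the AOM arrays the one labeled Pla2g3-/- was the brighter by 6.01-fold. Thus the signal of the targeted gene was not lower on the arrays labeled Pla2g3-/-. Whether this bears on the labels was not tested, and every genotype direction below follows the labels alone. The files do not say where the probes lie relative to the deleted part. The Pla2g3+/+ AOM array stood apart in its smooth muscle signals. On it all 6 smooth muscle genes of a marker list were over 2-fold below vehicle (median log2 difference -4.59), whereas on the Pla2g3-/- AOM array the median was -0.10. All 10 pan-epithelial genes were detected on all 4 arrays, with median differences after AOM of -0.54 in Pla2g3+/+ and 0.01 in Pla2g3-/- colon.

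After AOM, Trpm5 and Gng13 were over 2-fold lower in both genotypes. Trpm5, the cation channel at the end of the cascade, had signals of 15.8% ± 1.63 (scanner error) in Pla2g3+/+ and 14.0% ± 1.5 in Pla2g3-/- colon with vehicle, and of 1.78% ± 0.336 and 2.49% ± 0.424 after AOM. Both AOM arrays lay below both vehicle arrays, and Trpm5 was 8.90-fold lower after AOM in Pla2g3+/+ and 5.60-fold lower in Pla2g3-/- colon. On the log2 scale the differences were -3.15 ± 0.31 and -2.49 ± 0.29.

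Gng13 encodes the γ13 subunit of the G protein of taste and tuft cells. Its signal was 14.5% ± 1.53 in Pla2g3+/+ and 18.2% ± 1.93 in Pla2g3-/- colon with vehicle, and 3.06% ± 0.467 and 2.57% ± 0.492 in the same order after AOM. Relative to vehicle, Gng13 was 4.74-fold lower after AOM in Pla2g3+/+ and 7.07-fold lower in Pla2g3-/- colon. For both Trpm5 and Gng13, the AOM signals were low in absolute intensity, between 23.3 and 40.1, yet still above background.

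Gfi1b, a zinc finger repressor of tuft cells and of erythroid and megakaryocytic cells, gave 6.27% ± 0.747 and 5.84% ± 0.805 with vehicle and 1.98% ± 0.354 and 1.95% ± 0.398 after AOM (Pla2g3+/+ first). This was 3.17-fold and 3.00-fold lower. Gfi1b was dim throughout, at intensities of 40.5 and 38.0 with vehicle and 25.9 and 22.8 after AOM. The lowest detected intensities on the AOM arrays were 16.4 and 17.1. On the Pla2g3+/+ AOM array, 4 of 8 erythroid and megakaryocytic markers were over 2-fold higher than with vehicle and none was lower, and on the Pla2g3-/- AOM array 1 was higher and 1 lower. The list's summed signal was 1087% and 1518% with vehicle and 3761% and 1128% after AOM (Pla2g3+/+ first), and the part of these cells in the Gfi1b values was not tested. Pou2f3, the factor required for tuft cells, was measured at 1.17% and 0.956% with vehicle and 0.351% and 0.624% after AOM, all below detection, and has no fold.

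Sucnr1, the receptor through which tuft cells sense succinate, was detected on both vehicle arrays and on neither AOM array. Its signal was 11.3% ± 1.22 in Pla2g3+/+ and 10.9% ± 1.25 in Pla2g3-/- colon with vehicle. After AOM the reported values were 0.326% and 0.389%, at intensities of 4.27 and 4.54 that were as large as their own errors (4.25 and 4.52). The scanner software replaces low signals by a stand-in value, so these values are not read as levels of Sucnr1. Sucnr1 was at least 9.03-fold lower after AOM in Pla2g3+/+ and at least 7.44-fold lower in Pla2g3-/- colon, and its AOM values are part of what selected it. Sucnr1 is also expressed in adipocytes and macrophages. In the adipocyte list, 4 of 5 genes (Adipoq, Plin1, Fabp4 and Cidec) were over 2-fold lower after AOM in both genotypes, and Lep was detected on the Pla2g3+/+ vehicle array only. The summed adipocyte signal went from 1051% to 221% in Pla2g3+/+ and from 1812% to 336% in Pla2g3-/- colon. Of 6 macrophage markers, 4 were over 2-fold higher after AOM in Pla2g3+/+, whereas 1 was higher and 1 lower in Pla2g3-/- colon, and Cd163 was not detected on any array. The part of either cell type in the Sucnr1 values was not tested. Il25, the cytokine of tuft cells, was below detection on all arrays, at 1.85% and 1.06% with vehicle and 0.377% and 0.455% after AOM. These values are not read as levels either, and Il25 has no fold.

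**Figure D1:**
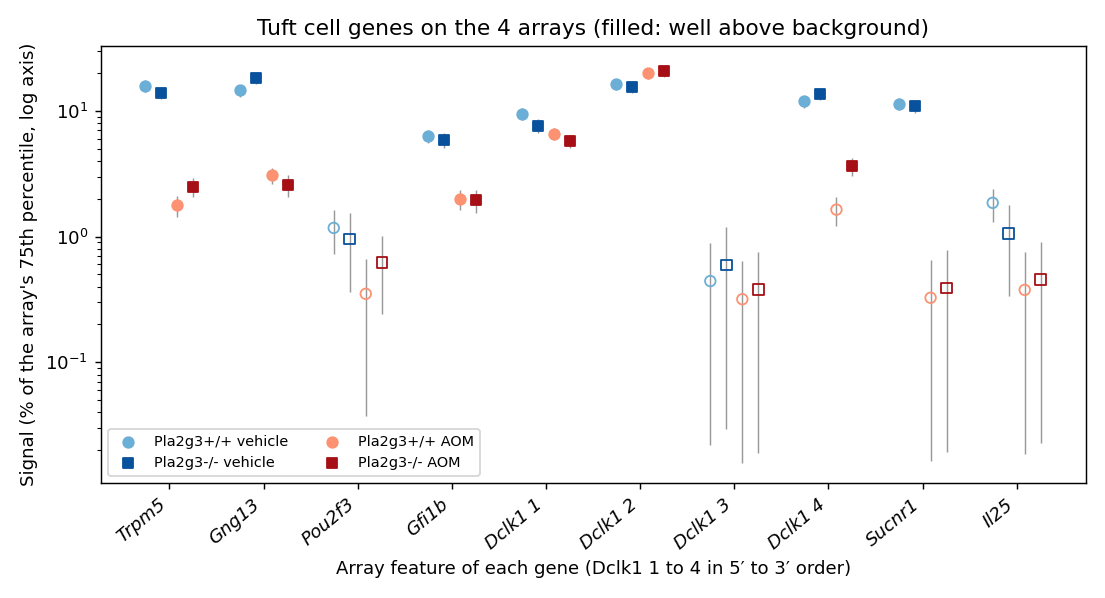
Signal of each probe of the 7 genes on the 4 arrays, as a percent of the 75th percentile of the array on a log axis. Filled points are well above background, open points are not, and bars are the scanner software's error (cut off near zero for dim spots); Trpm5, Gng13, Gfi1b, Sucnr1 and the 3′-most Dclk1 probe are lower on both AOM arrays, while the other detected Dclk1 probes stay near their vehicle signals.

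Dclk1, a microtubule-associated kinase used as the classic histological marker of tuft cells, gave different answers by probe. The gene yields several transcripts, with and without the kinase domain, and is also expressed in neurons. Probe 4, which lies farthest 3′ and which the files assign to transcript variant 1, had signals of 11.9% ± 1.31 and 13.7% ± 1.55 with vehicle, and of 1.64% ± 0.426 (not detected) and 3.64% ± 0.60 after AOM, Pla2g3+/+ first. By these signals as measured it was 7.25-fold lower after AOM in Pla2g3+/+ and 3.76-fold lower in Pla2g3-/- colon. On the log2 scale the differences were -2.86 ± 0.41 and -1.91 ± 0.29.

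The brightest Dclk1 probe, probe 2, lies 67015 bases upstream and is assigned to transcript variant 4. It gave 16.3% ± 1.68 and 15.5% ± 1.64 with vehicle and 19.9% ± 2.01 and 20.7% ± 2.10 after AOM, a log2 difference of 0.29 ± 0.21 in Pla2g3+/+ and 0.41 ± 0.21 in Pla2g3-/- colon. Neither difference passed 2-fold. Probe 1, 73531 bases upstream of probe 4, was at 9.43% and 7.57% with vehicle and 6.54% and 5.74% after AOM, with log2 differences of -0.53 ± 0.23 and -0.40 ± 0.25. Of the 4 RefSeq transcripts that the files list for probe 4, 1 is also listed for probe 1 and 0 for probe 2. Of 9 enteric neuron markers, 7 were over 2-fold lower in Pla2g3+/+ and 2 in Pla2g3-/- colon after AOM, and their summed signal went from 1909% to 508% and from 1687% to 1250%. Vip was not detected on the Pla2g3+/+ AOM array, and the part of neurons in the Dclk1 signals was not tested.

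**Figure D2:**
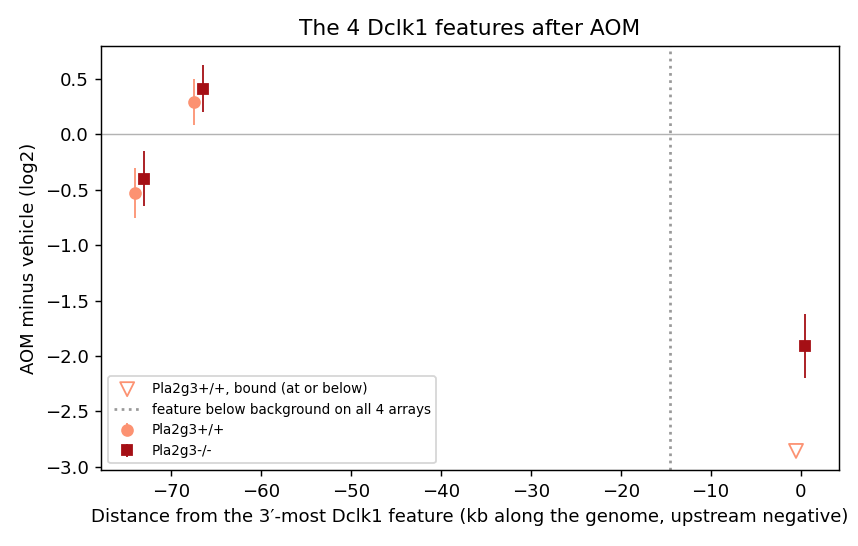
Log2 difference between AOM and vehicle for the Dclk1 probes, against their distance along the genome from the 3′-most probe, in each genotype. Bars are the propagated scanner error, points of the genotypes are set slightly apart and the dotted line marks the probe below detection. The open triangle, drawn as a bound, is a value as measured whose AOM spot was not detected. The probes 67015 and 73531 bases upstream stay within 2-fold, while the 3′-most is at or below -1.91 in both genotypes.

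Counted by the brightest probe of each gene, 4 of the 5 genes with a value (Trpm5, Gng13, Gfi1b and Sucnr1) were over 2-fold lower after AOM in Pla2g3+/+ colon and 0 were higher. Across all 17197 genes with a value in that comparison, 22.3% were over 2-fold lower and 15.1% higher. In Pla2g3-/- colon the same 4 genes of 5 were lower and 0 higher, where 15.1% of 16437 genes were lower and 9.64% higher. Because AOM values took part in the choice of members, nothing is read from these counts against the background. The median log2 difference of the 5 genes was -2.24 and -2.49, against -0.17 and -0.08 for all genes. Taken relative to the median difference of the 10 pan-epithelial genes, the 4 genes were still over 2-fold lower in both genotypes, Gfi1b by the least in Pla2g3+/+ (-1.13) and Sucnr1 by the most in Pla2g3-/- colon (at least -2.90). The 10 genes were themselves mixed. In Pla2g3+/+ they ran from -3.59 for Cdx2 to 0.64 for Cdh1, with 3 over 2-fold lower and 0 higher. In Pla2g3-/- colon they ran from -2.49 to 1.56 for the same genes, with 2 lower and 1 higher.

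The size of these differences depended on how dim signals were treated. With normexp background correction, which adds a constant to every signal, and quantile normalization, only Trpm5 passed 2-fold in Pla2g3+/+ (-1.20) and only Trpm5 (-1.04) and Gng13 (-1.12) in Pla2g3-/- colon. Without scaling between arrays, Gfi1b stayed within 2-fold (-0.64 and -0.74) and the brightest Dclk1 probe was over 2-fold higher after AOM in both genotypes (1.31 and 1.26). That setting moved the median of all genes detected on both arrays from -0.16 to 0.86 in Pla2g3+/+ and from -0.10 to 0.75 in Pla2g3-/- colon. The direction of Trpm5, Gng13, Gfi1b and Sucnr1 was the same under every setting that gave a value.

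**Figure D3:**
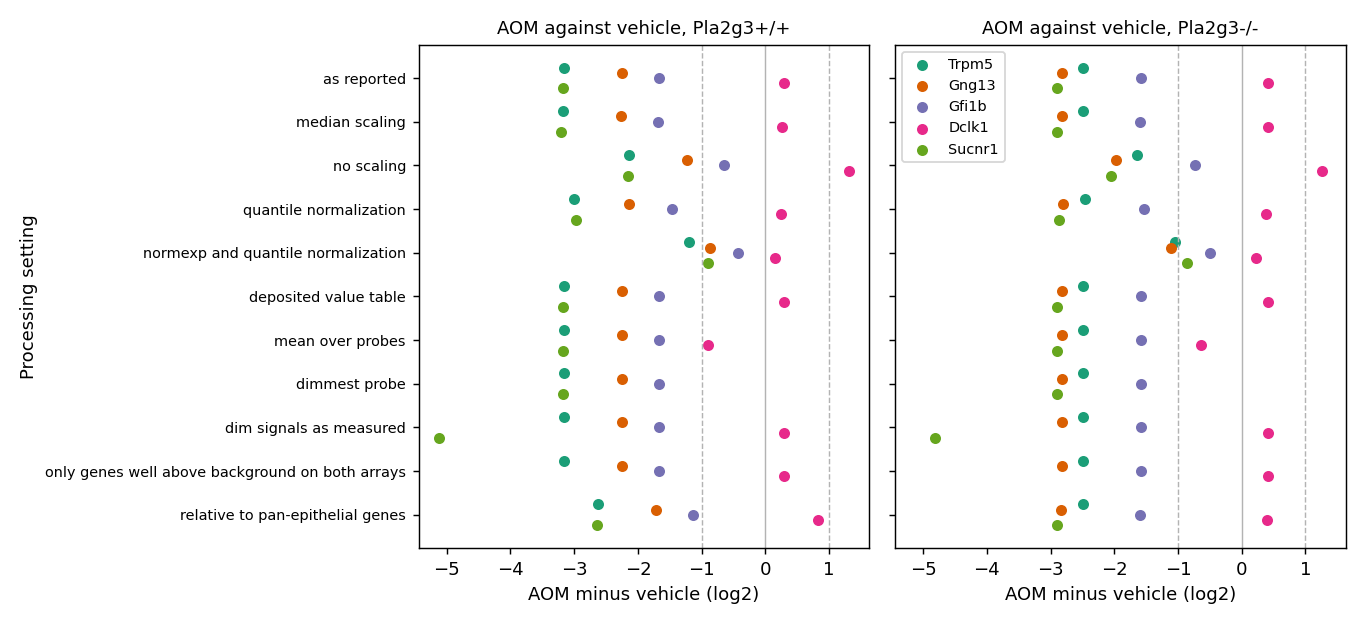
Log2 difference between AOM and vehicle of the 5 genes with a value, under each processing setting, for Pla2g3+/+ (left) and Pla2g3-/- (right). Dashed lines mark 2-fold; Trpm5 is past 2-fold lower in every row, from -1.20 to -3.18 on the left, and the differences are smallest with normexp and quantile normalization.

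The genotypes were compared to ask whether loss of Pla2g3 alters tuft cell genes, a contrast outside the selection rule, although the choice of Sucnr1 drew on its signals in both genotypes and all members were chosen with earlier results known. With vehicle, 0 of 5 genes differed by over 2-fold between Pla2g3-/- and Pla2g3+/+ colon, where 1.92% of 16315 genes were higher and 1.32% lower. The log2 differences ran from -0.18 ± 0.21 for Trpm5 to 0.33 ± 0.22 for Gng13, with -0.06 ± 0.23 for Sucnr1, -0.10 ± 0.26 for Gfi1b and -0.07 ± 0.21 for the brightest Dclk1 probe. All but that of Gng13 were smaller than the scanner error.

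After AOM, 0 of 4 genes with a value differed by over 2-fold between the genotypes, where 15.1% of 17115 genes were higher and 12.9% lower in Pla2g3-/- colon. Trpm5, Gng13 and Gfi1b had AOM signals of 1.78% to 3.06%, near the lowest detected signals (1.26% in Pla2g3+/+ and 1.46% in Pla2g3-/-). This left little room for a lower value to be called, so nothing is read from the count against those shares. The log2 differences were 0.49 ± 0.37 for Trpm5, -0.25 ± 0.35 for Gng13, -0.02 ± 0.39 for Gfi1b and 0.05 ± 0.21 for the brightest Dclk1 probe. Relative to the median difference of the 10 pan-epithelial genes (0.69), they became -0.20 for Trpm5, which turned in direction, -0.94 for Gng13, -0.71 for Gfi1b and -0.64 for Dclk1, all still within 2-fold. By the 3′-most Dclk1 probe, not detected in Pla2g3+/+ colon and read there by its own signal, Pla2g3-/- colon was 2.22-fold higher (log2 1.15 ± 0.44). This difference was within 2-fold without scaling (0.99) and with normexp and quantile normalization (0.20). Sucnr1, undetected on both AOM arrays, has no fold. Markers of several other cell types were far apart on these arrays. The median log2 difference was 5.34 for 6 smooth muscle genes, all over 2-fold higher in Pla2g3-/- colon, 2.25 for 6 goblet cell genes, all higher as well, and 2.58 for 8 enteroendocrine genes, of which 6 were higher and 1 lower. For 7 mast cell genes it was -2.09, with 5 lower. With 1 pool per group, similar signals do not show that the genotypes are alike.

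Beyond the 7 genes, 31 further genes of tuft cell biology were read on the arrays. Of 29 with a value, 11 were over 2-fold lower and 4 higher after AOM in Pla2g3+/+, with a median log2 difference of -0.45, where 22.3% of all genes were lower and 15.1% higher. In Pla2g3-/- colon 9 of 28 were lower and 3 higher, with a median of -0.55, where 15.1% of all genes were lower and 9.64% higher. Lower in both genotypes were 7 of 28 genes, against 8.02% of the 16036 genes with a value in both, namely Rgs13, Sh2d7, Sh2d6, Spib, Siglecf, Gnat3 and 1810046K07Rik, which are named here because of their values. Because these further genes too were listed with earlier results of these data known, nothing is read from their counts against the background.

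Rgs13 is a regulator of G protein signaling. Its signal was 136% and 94.0% with vehicle and 2.17% and 4.66% after AOM (Pla2g3+/+ first), a log2 difference of -5.97 in Pla2g3+/+ and -4.34 in Pla2g3-/- colon. Sh2d7, an SH2 domain adaptor, went from 38.8% to 0.306% (not detected) in Pla2g3+/+ and from 35.6% to 2.27% in Pla2g3-/- colon, or at least -4.95 and -3.97 on the log2 scale. Both genes were lower on each AOM array than on either vehicle array.

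The gene 1810046K07Rik, since renamed Pou2af2 and known as a coactivator of POU2F3, had signals of 11.8% and 9.45% with vehicle and was not detected after AOM, at least -3.23 and -2.69 on the log2 scale. Spib, a transcription factor also of B cells, plasmacytoid dendritic cells and M cells, differed by -2.91 and -3.21, and Siglecf, a lectin also of eosinophils, by -2.13 and -3.26. Sh2d6 differed by -1.69 and -1.31.

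In the taste transduction group of 8 genes, Gnat3, the α subunit gustducin, was detected with vehicle only (5.16% and 3.92%) and was at least -2.04 and -1.42 lower on the log2 scale. Tas1r3, a taste receptor subunit, was lower in Pla2g3+/+ (-1.68) and at -0.94 in Pla2g3-/- colon, while Gnb3 and Tas1r1 were not detected on any array and Plcb2, the phospholipase of taste cells, on the Pla2g3+/+ vehicle array only. Itpr3, a calcium release channel of many epithelia, was 2.14-fold higher in Pla2g3-/- colon. Of 5 eicosanoid enzymes, Ltc4s, leukotriene C4 synthase, was lower in Pla2g3+/+ (-1.17) and Hpgds, a prostaglandin D synthase, higher in Pla2g3-/- colon (1.23). Alox5, Alox5ap and Ptgs1 stayed within 2-fold in both.

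Other genes of the list went the opposite way in Pla2g3+/+ colon. Avil, an actin-binding protein of tuft cells, had signals of 6.79% and 6.74% with vehicle and of 92.3% and 2.81% after AOM, with log2 differences of 3.77 in Pla2g3+/+ and -1.26 in Pla2g3-/- colon. Plcg2 (1.35), Vav1 (1.45) and Inpp5d (1.62), which leukocytes also express, were over 2-fold higher after AOM in Pla2g3+/+, while their log2 differences in Pla2g3-/- colon were -0.47, 0.29 and 0.56. The difference between these effects was not tested. Ptprc, the pan-leukocyte CD45 gene, was at 23.3% and 15.3% with vehicle and 43.9% and 10.2% after AOM, and the part of leukocytes in these values was not tested. Between the genotypes, 1 of 28 further genes with a value (Hpgds, -1.18) was over 2-fold lower in Pla2g3-/- colon with vehicle and 0 were higher. Of all genes, 1.32% were lower and 1.92% higher in that comparison. After AOM 7 of 26 were lower, among them Avil (-5.04), Ptprc (-2.10) and Plcg2 (-1.79), and 2 were higher, Lrmp (1.46) and Rgs13. On the AOM arrays 12.9% of all genes were lower and 15.1% higher, and nothing is read from the genotype counts either.

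**Figure D4:**
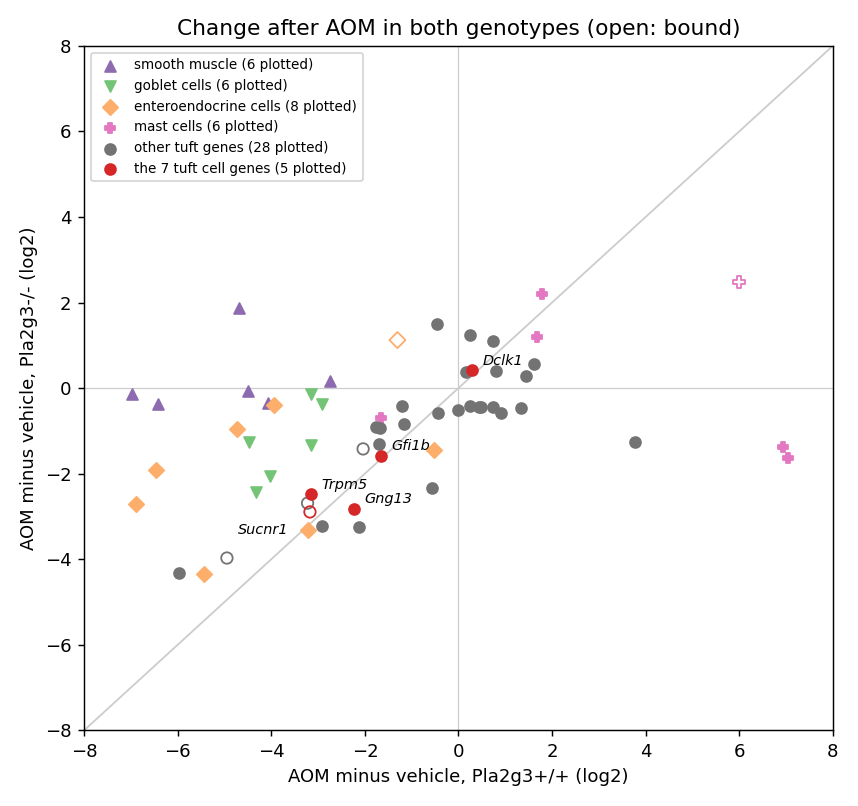
Log2 difference between AOM and vehicle in Pla2g3+/+ (horizontal) and Pla2g3-/- colon (vertical) for the 5 measured tuft cell genes, 28 further tuft cell genes and markers of 4 other cell types, with open symbols where a side is a bound and the diagonal drawn for equal values. Trpm5, Gng13, Gfi1b and Sucnr1 lie near the diagonal between -1.58 and -3.17, whereas the smooth muscle genes lie far to its left and the mast cell genes Mcpt1 and Mcpt2 far to its right.

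The circuit that tuft cells act on was read through 16 genes of type 2 immunity. Il4, Il5, Il9 and Il13 were at or near the detection limit, with Il13 detected on the Pla2g3-/- vehicle array alone (3.39%) and Il4 on the Pla2g3+/+ AOM array alone (2.19%). Il33, an epithelial and stromal alarmin, was higher after AOM in both genotypes, at 31.3% and 38.5% with vehicle and 193% and 117% after AOM. Il1rl1, its receptor on mast cells and lymphocytes, had signals of 18.7% and 21.6% with vehicle, of 1441% in Pla2g3+/+ and of 6.51% in Pla2g3-/- colon after AOM. The goblet cell products Retnlb and Clca1, which interleukin-13 induces, were lower after AOM in both genotypes, and so were other genes of secretory cells. Of 6 goblet cell genes, 6 were over 2-fold lower in Pla2g3+/+ (median log2 difference -3.60) and 4 in Pla2g3-/- colon (-1.30), and of 8 enteroendocrine genes 7 were lower in Pla2g3+/+ (-4.33) and 5 in Pla2g3-/- colon (-1.68). Their part in the tuft cell values was not tested. Retnlb went from 18133% to 118% in Pla2g3+/+ and from 16725% to 59.5% in Pla2g3-/- colon. In all, 4 of 13 genes with a value were higher and 2 lower in Pla2g3+/+, and 2 were higher and 4 lower in Pla2g3-/- colon. Of all genes, 15.1% were higher and 22.3% lower in Pla2g3+/+, and 9.64% higher and 15.1% lower in Pla2g3-/- colon. Nothing is read from the counts of these lists against those shares.

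Over the 4 arrays, the profile of each member detected on all of them was set against those of 14719 genes, by the root mean square difference of log2 signals centered on the mean of each gene. Nearest to Trpm5 were Ccl6 (0.054), Creb3l4 (0.10) and S100z (0.14). Nearest to Gng13 were Bax (0.074), Ccl9 (0.13) and Lamtor2 (0.14). Nearest to Gfi1b were Oxld1 (0.018), Zkscan1 (0.027) and Ssr4 (0.032). Nearest to the brightest Dclk1 probe were Gm10777 (0.011), Pnpla6 (0.013) and Pced1b (0.014). Trpm5 ranked 52nd in likeness to Gng13 at 0.35 and Gfi1b ranked 170th at 0.49, whereas Dclk1 ranked 10038th at 1.45. Seen from Trpm5, Gng13 ranked 44th and Gfi1b 301st. Seen from Gfi1b, Gng13 ranked only 2325th and Trpm5 4048th, with 15.8% and 27.5% of genes nearer. With 4 arrays of which 2 share each treatment, many genes have close profiles.

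Promoters of the tuft cell genes were searched for the octamer ATGCAAAT, the DNA element of POU class 2 factors, and its reverse complement ATTTGCAT, in windows from 250 bases before to 50 bases after the start in RefSeq (GRCm38.p6). Of 32851 windows of all genes, 1.74% hold it. Among the 7 windows listed for 5 of the members, 1 does, that of Sucnr1, and among the 29 windows for 27 of the further tuft cell genes 4 do, those of 1810046K07Rik, Hpgds, Itpr3 and Kctd12. The table lists no window for Pou2f3 and Il25. In Sucnr1 the element begins 48 bases before the start, and in 1810046K07Rik it occurs at 86 and, on the other strand, at 55 bases before the start. The 120 bases before the start are shown for these genes, both undetected after AOM, with the element in capitals.
Sucnr1, chr3:60081749-60081868 of GRCm38.p6 on the plus strand: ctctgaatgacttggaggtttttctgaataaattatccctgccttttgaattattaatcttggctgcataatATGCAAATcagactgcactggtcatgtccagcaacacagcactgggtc
1810046K07Rik, chr9:51328919-51329038 of GRCm38.p6 on the minus strand: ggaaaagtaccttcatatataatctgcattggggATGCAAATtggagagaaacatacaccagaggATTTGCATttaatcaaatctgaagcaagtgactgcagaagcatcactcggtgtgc
A match of letters is not a binding site, and the arrays measured no binding. Of the 5 genes with the element, 3 (Itpr3, Hpgds and Kctd12) were not over 2-fold lower after AOM in either genotype, and Trpm5, Gng13 and Gfi1b, which were, do not hold these letters in the window.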

How the data were processed

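Total RNA from pooled colons (27.7 ng per pool) was labeled with Cy3 and hybridized to Agilent Whole Mouse Genome arrays. The authors deposited spot intensities that Agilent Feature Extraction (version 11.5.1.1) had, as the headers state, background-subtracted, detrended within the array, replaced by a surrogate where low, and not scaled between arrays. Its deposited 0 or 1 flags (well above background, saturated, outlier) and other spot measures were used as given. The deposited value table is a ratio, the authors' intensity over the 75th percentile of the array on the linear scale, with no centering. Its divisor was within 0.018% of the percentile computed here, and its column medians were 0.105 to 0.110.

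Here, control and outlier spots were left out, log2 signals of replicate spots were averaged, and the array's 75th percentile on the log2 scale was subtracted. Of 39423 probes, 31046 matched a RefSeq gene (GRCm38.p6, names only), and a gene was read by its brightest probe. Members and lists were chosen with earlier results of these data known. Named genes were the members, the genes of each list with the largest differences past 2-fold, and the 3 nearest profiles per member, and some genes of the lists are not reported here by name. Replicate spots of signals between 20 and 300 had a median SD of 0.091 to 0.11 log2 units. Precision is limited by there being 1 array per group. Saturated spots numbered 0. The code for differences and calls was run on simulated signals without spread between pools, which checks the code and not the calls made here. Tools were Python 3.11.15, pandas 2.3.3, numpy 2.4.6, and limma 3.58.1 in R 4.3.3 for normexp with an offset of 50. The 12 alternatives were median, quantile and no scaling, normexp with quantile normalization, the deposited table, the mean or dimmest probe, dim signals as measured or left out, 1.5-fold and 4-fold thresholds, and differences relative to pan-epithelial genes.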

Additional observations from a re-analysis of the deposited data

How the results depend on the processing

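Under the 12 alternatives, the counts of tuft cell genes past 2-fold stayed within 1.5 times of those reported, except under a pair of settings. Without scaling, 1 gene (Dclk1 by its brightest probe) was over 2-fold higher after AOM in Pla2g3+/+ and 1 in Pla2g3-/- colon. With normexp and quantile normalization, 1 gene was lower after AOM in Pla2g3+/+ and 2 in Pla2g3-/- colon. By the mean over its probes, Dclk1 differed after AOM by -0.89 in Pla2g3+/+ and -0.64 in Pla2g3-/- colon, in place of 0.29 and 0.41. The spots of Pou2f3, Il25 and, after AOM, Sucnr1 lay within the background, which sets the limit of what can be read for them. No paired analysis was possible because each group is 1 array, and for the same reason no replicate could be left out. Beyond the settings for dim signals, the part of probe dimness in these differences was not tested, nor was that of RNA amount or the makeup of each pool.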
